A study of Homo sapiens with 15 samples.

Results

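Cadherins and protocadherins are the calcium-dependent adhesion proteins of the cadherin family, and their expression was followed from hiPSCs through the neural retina (NR) layers of retinal organoids (ROs) to induced Müller glial cells (iMGCs) in passage. The members were all genes of the deposited tables whose symbols read CDH plus a number, PCDH plus a number with or without an X, or PCDHA, PCDHB or PCDHG plus any ending. This gave 88 genes of 19684. They comprised 5 type I and 13 type II classical cadherins, 5 other cadherins, 5 delta-1 and 5 delta-2 protocadherins, 2 other protocadherins, and the clustered protocadherins with 15 alpha, 16 beta and 22 gamma genes.

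Poly(A) RNA-seq had been done on 5 groups of 3 libraries, all derived from 1 line, BC1-GFP, a human induced pluripotent stem cell line of WT genotype that carries a GFP reporter. The groups were undifferentiated hiPSCs, NR layers isolated from ROs at 70 days (D70-ROs) and 150 days (D150-ROs) of differentiation, with 5 ROs pooled per experiment, and iMGCs expanded from the NR layers of D150-ROs at passage 1 (P1) and passage 5 (P5), taken on day 5 of the passage. A single line is a limit of the model, and RO libraries average over the organoids of a pool. The 3 libraries of a group are described as independent experiments in the sample labels but as 2 for hiPSCs and ROs in the description of the whole series, so p-values measure the spread between these libraries, which may in part be technical.

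Classical cadherins bind their like on the neighboring cell and are tied to the actin cytoskeleton by catenins. E-cadherin (CDH1) holds epithelia and pluripotent colonies together, whereas N-cadherin (CDH2) does so in neuroepithelium, in the retina including the junctions between Müller glia and photoreceptors at the outer limiting membrane, and in mesenchymal cells. Clustered protocadherins are expressed in combinations that give neurons a surface identity. In the alpha and gamma clusters each variable exon has its own promoter and is spliced to exons that the whole cluster shares, while a beta gene stands alone.

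The clustered genes lie side by side on the + strand of chromosome 5, and words frequent in the promoters of each cluster are shown first. On GRCh38, by GENCODE 29, the alpha cluster spans chr5:140786136-141012347, the beta cluster chr5:141051135-141249365 and the gamma cluster chr5:141330571-141512981. RefSeq promoters of 300 bases, from 250 before to 50 after the RefSeq start (GRCh38.p14), were found for 69 of the 88 members and 47 of the 53 clustered genes. RefSeq starts differ from the GENCODE starts for some of these genes. Promoters of this locus are known for a conserved box whose core reads CGCT, and both strands were searched for it and for 8-letter words around it. These words were picked after the sequences had been seen, as the ones frequent in each cluster. ATGTCGCT stood in 9 of 13 alpha promoters (69.2%) and in 0.282% of the promoters of all 27305 genes. GTGGCGCT stood in 13 of 14 beta promoters (92.9%) against 1.38% of all genes. GCCGCTGT stood in 11 of 20 gamma promoters (55%) against 1.98% of all genes. The core CGCT alone, which is part of each of the 3 words, is common, and 71.9% of all genes held it. Windows of 30 bases around these words are given below, with the word in capitals, for members whose levels are described further on.
PCDHA4, chr5:140806980-140807009, + strand: ggagccacatgATGTCGCTctttaccacaa
PCDHA10, chr5:140855842-140855871, + strand: aaagccaccggATGTCGCTgtcgtccacaa
PCDHA12, chr5:140875245-140875274, + strand: tcagtcacatgATGTCGCTctacactcaga
PCDHB2, chr5:141094545-141094574, + strand: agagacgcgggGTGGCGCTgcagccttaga
PCDHB3, chr5:141100394-141100423, + strand: gcgaacgcatgGTGGCGCTgttgactaaga
PCDHB14, chr5:141223264-141223293, + strand: ggagacacatgGTGGCGCTacaggataaga
PCDHB16, chr5:141182311-141182340, + strand: gagaacgcgtgGTGGCGCTgcaggttaaga
PCDHGB6, chr5:141407927-141407956, + strand: agcctctgggcGCCGCTGTcggccagtgca
PCDHGA10, chr5:141412934-141412963, + strand: ggactctgagcGCCGCTGTtcacctactag
PCDHGC3, chr5:141475883-141475912, + strand: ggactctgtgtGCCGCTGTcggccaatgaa

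Every match to a cluster's own word was on the strand of the gene. The word lay 42 to 85 bases before the start in the alpha genes (median 52), 1 to 83 bases in the beta genes (median 65) and 42 to 222 bases in the gamma genes (median 70). The gamma values of 222 in PCDHGB1 and 208 in PCDHGC4 belong to sites also counted from another RefSeq start, at 60 and 64 bases. No other gamma value exceeded 97 bases. PCDHAC2, the last alpha gene of the cluster and the alpha member with the highest level in D150-ROs, had no ATGTCGCT in its window. That window starts at 140966226 and the GENCODE gene at 140966235. Nearly all of it thus lies within the GENCODE gene, and the sequence further before the GENCODE start was not searched. The whole PCDHAC2 window is set beside that of PCDHA4. Capitals mark the alpha word in PCDHA4 and the 3 copies of CGCT on the strand of the gene in PCDHAC2.
PCDHA4 promoter, chr5:140806818-140807117, + strand: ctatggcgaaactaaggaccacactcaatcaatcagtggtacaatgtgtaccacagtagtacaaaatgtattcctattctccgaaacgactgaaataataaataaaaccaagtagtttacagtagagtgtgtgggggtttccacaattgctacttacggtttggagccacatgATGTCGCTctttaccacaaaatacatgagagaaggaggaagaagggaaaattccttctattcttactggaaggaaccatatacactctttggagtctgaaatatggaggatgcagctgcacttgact
PCDHAC2 promoter, chr5:140966226-140966525, + strand: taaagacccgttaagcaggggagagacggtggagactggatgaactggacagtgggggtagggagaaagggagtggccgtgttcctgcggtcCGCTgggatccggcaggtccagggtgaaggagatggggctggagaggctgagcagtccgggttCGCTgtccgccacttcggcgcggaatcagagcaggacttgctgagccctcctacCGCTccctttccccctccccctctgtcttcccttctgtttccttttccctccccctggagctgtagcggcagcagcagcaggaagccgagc

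These matches are descriptions of letters in a window and show no binding. Their relation to the expression of the genes was not tested.

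Library totals of RSEM expected counts ranged from 11349600 to 20398755, and D70-RO replicate 2 was the shallowest. FPKM, reads scaled for the length of the transcript and for the mapped reads of the library, is used for levels, because it allows levels of different genes to be set side by side. Tests were made on the expected counts by the quasi-likelihood method of edgeR, for genes that reached 1 FPKM in 3 or more of the 6 libraries, and p-values were adjusted by Benjamini and Hochberg's method over all of these. A gene was called higher or lower where the adjusted p was under 0.05 and the change 2-fold or more. A member that passed the filter through 1 group only had to differ between the groups, so counts of members are descriptions. D150-ROs enter 3 of the comparisons and hiPSCs, D70-ROs and P1 iMGCs 2 each, so the comparisons are not independent of each other. In bulk libraries, fewer cells of a type and less RNA per cell cannot be told apart. The markers of the label were present in hiPSCs, where all 4 pluripotency markers (POU5F1, NANOG, TDGF1, LIN28A) exceeded 1 FPKM. The iMGC label was met in part. VIM was at 2141 to 2181 FPKM in P1 iMGCs, but RLBP1 had no count there against 29.6 to 36.9 FPKM in D150-ROs, SLC1A3 was at 0.36 to 0.39 FPKM, and GLUL was at 12.3 to 14.6 FPKM against 97.6 to 102 FPKM.

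Between 25 and 46 of the 88 members reached 1 FPKM in every library of a group. The number was 29 in hiPSCs, 33 in D70-ROs, 46 in D150-ROs, 26 in P1 iMGCs and 25 in P5 iMGCs. All genes at 1 FPKM or more were also most numerous in D150-ROs, with 12619 to 12643 per library. They numbered 11986 to 12089 in hiPSCs, 12264 to 12334 in D70-ROs, 11223 to 11272 in P1 and 11212 to 11248 in P5 iMGCs. Of the 55 members whose mean reached 1 FPKM in any group, 31 had their highest mean in D150-ROs, 9 in hiPSCs, 6 in D70-ROs, 5 in P1 iMGCs and 4 in P5 iMGCs. This count was not made over all genes. A member whose mean reached 1 FPKM in 1 group only had to be highest there, so these counts are descriptions. With limma on log2(FPKM + 1), the median change of all genes was itself 0.19 from D70-ROs to D150-ROs and −0.59 from D150-ROs to P1 iMGCs. All 10 such alpha genes, all 9 beta genes and all 5 delta-2 protocadherins were highest in D150-ROs, whereas of the 11 gamma genes 5 were highest in hiPSCs and 2 each in D150-ROs, in P1 iMGCs and in P5 iMGCs. PCDHA2, PCDHA3, PCDHA5, PCDHB4 and PCDHB13 reached a mean of 1 FPKM in D150-ROs alone. The most abundant members were CDH1, CDH3 and PCDH1 in hiPSCs, CDH2, CDH11 and CDH20 in D70-ROs, CDH2, CDH11 and PCDHB2 in D150-ROs, and CDH2, CDH11 and CDH13 at both passages.

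From hiPSCs to D70-ROs, 40 members passed the filter, of which 20 were called higher and 9 lower, or 72.5%. Over all genes tested, 43.5% were called, 22.5% higher and 21.1% lower. The median log2 fold change was 0.77 over the members tested and 0.02 over all genes. From D70-ROs to D150-ROs, 19 members were called higher and 3 lower of 48 tested (45.8%), against 33.3% of all genes, 16.6% higher and 16.7% lower, and the median was 0.84 against −0.01. D150-ROs set against hiPSCs gave 32 higher and 7 lower of 49 (79.6%), against 58.8% of all genes, 29.8% higher and 29% lower, with medians of 1.89 and −0.02. P1 iMGCs set against D150-ROs turned the balance round, with 8 higher and 28 lower of 48 (75%), against 44.1% of all genes, 20% higher and 24.1% lower, and medians of −1.32 and −0.05. On the FPKM scale, with limma on log2(FPKM + 1), the same comparison gave 2 higher and 29 lower, and the median of all genes itself stood at −0.59. Between passages, 2 members were called higher and 1 lower of 28, against 2.92% of all genes, 1.94% higher and 0.977% lower.

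The E- to N-cadherin switch was present in the D70-ROs already. CDH1 (ENSG00000039068, chr16:68737225-68835548, + strand) was at 133, 124 and 104 FPKM in the 3 hiPSC libraries and at 0.40, 0.49 and 0.36 FPKM in D70-ROs. All hiPSC libraries were thus far above all D70-RO libraries, and CDH1 was 337-fold lower in D70-ROs (log2 fold change −8.40 ± 0.19 (SE), edgeR quasi-likelihood adjusted p = 1.68e-10). CDH2 (ENSG00000170558, chr18:27950966-28177446, − strand) was at 8.93, 9.01 and 9.14 FPKM in hiPSCs and at 105, 109 and 111 FPKM in D70-ROs. The groups did not overlap, and CDH2 was 11.1-fold higher in D70-ROs (log2 fold change 3.47 ± 0.11 (SE), edgeR quasi-likelihood adjusted p = 1.02e-09). The log2 ratio of CDH2 to CDH1, each with 0.01 FPKM added, went from −3.73 ± 0.20 (SD, n = 3) in hiPSCs to 8.004 ± 0.23 (SD, n = 3) in D70-ROs.

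**Figure D1:**
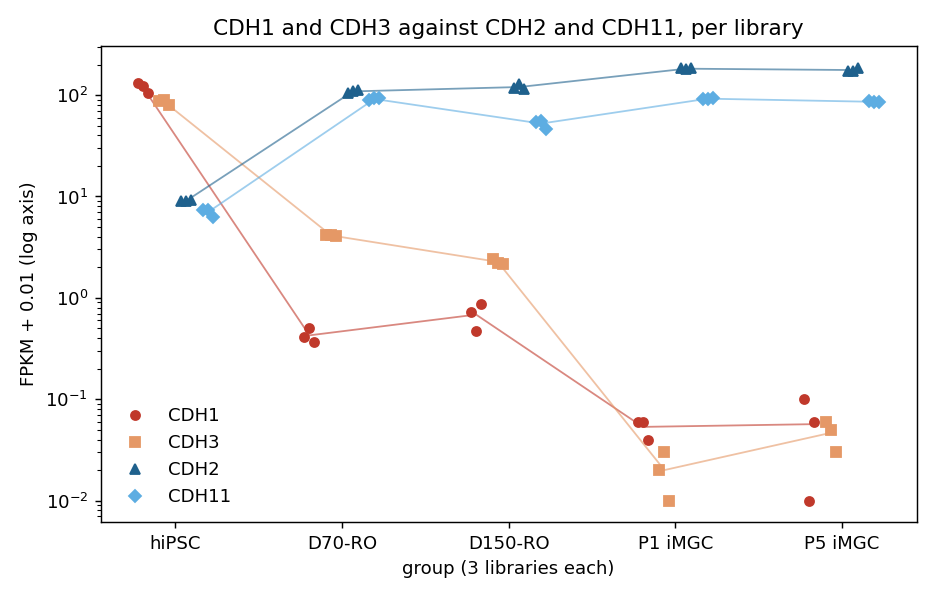
FPKM of E-cadherin (CDH1), P-cadherin (CDH3), N-cadherin (CDH2) and cadherin 11 (CDH11) in each of the 15 libraries, on a log axis after adding 0.01 FPKM, with groups in order on the horizontal axis. Points are libraries and the line joins the group means. CDH1 and CDH3 drop from hiPSCs to ROs and again to iMGCs, where CDH1 is at 0.09 FPKM or less, while CDH2 and CDH11 rise at D70 and stay high.

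Later stages kept this order. CDH1 was at 0.71, 0.46 and 0.85 FPKM in D150-ROs, 256-fold under hiPSCs. In the iMGCs it fell below the filter, with 7 counts in the 3 P1 libraries together and 11 in the 3 P5 libraries, against 122 in D150-ROs. CDH2 was at 116, 129 and 115 FPKM in D150-ROs and was not called against D70-ROs (log2 fold change −0.12 ± 0.07 (SE), or 0.14 with limma on FPKM). In P1 iMGCs it reached 183, 180 and 183 FPKM, and in P5 iMGCs 171, 172 and 187 FPKM. All 6 iMGC libraries lay above all RO libraries. CDH2 was 2.32-fold higher in P1 iMGCs than in D150-ROs on the scaling of edgeR (log2 fold change 1.22 ± 0.04 (SE)) but rose by 0.60 on the log2 scale of FPKM with limma, short of the 2-fold limit. P5 and P1 iMGCs differed in CDH2 by 0.00 ± 0.03 on the log2 scale (SE, edgeR quasi-likelihood adjusted p = 0.992).

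P-cadherin (CDH3), which sits beside CDH1 on chromosome 16 and is typical of basal epithelia and pigment epithelium, went the same way in smaller steps. It was at 87.5, 90.0 and 79.6 FPKM in hiPSCs, 4.13, 4.13 and 4.09 FPKM in D70-ROs and 2.41, 2.22 and 2.13 FPKM in D150-ROs. The 3 groups did not overlap, and CDH3 was 24.2-fold lower in D70-ROs than in hiPSCs and 45.8-fold lower in D150-ROs than in hiPSCs. In P1 iMGCs only 2 counts were left in the 3 libraries, against 461 in D150-ROs, which gives a log2 ratio between −10.31 and −5.40 (95% counting interval). Pigment epithelium markers summed to 119 to 138 FPKM in hiPSCs already, where 1 of the 4 genes was above 1 FPKM and RPE65 and TYR had no count. The sum was 82.1 to 131 FPKM in D70-ROs and 3.94 to 4.69 FPKM in D150-ROs. At both ages 2 of the 4 genes were above 1 FPKM, and TYR had no count in D150-ROs. The part of pigment epithelium in the CDH3 level was not tested. R-cadherin (CDH4), named after the retina, was at 2.04 to 3.76 FPKM in hiPSCs and 7.28 to 7.98 FPKM in D70-ROs, a rise of 1.39 ± 0.16 (SE) on the log2 scale, and differed by less than 2-fold in each later step. The remaining type I gene, CDH15 of skeletal muscle, had a mean under 0.25 FPKM in every group.

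The genes known to act with or on E-cadherin changed in the same interval. From hiPSCs to D70-ROs all 12 epithelial partners listed were called lower, against 21.1% of all genes. Their median log2 fold change was −7.06 against 0.02 over all genes. All 12 reached 1 FPKM in every hiPSC library but only 4 in every D70-RO library. A partner that passed the filter through hiPSCs alone had to come out lower, so the count and the median are descriptions. CLDN7, a tight junction claudin, fell from a mean of 100.1 to 0.173 FPKM, and ESRP1, an epithelial splicing regulator, from 56.9 to 0.153 FPKM. EPCAM, an epithelial adhesion molecule, was at 103 and 0.97 FPKM. OVOL2, a repressor of mesenchymal genes, had 388 counts in hiPSCs and none in D70-ROs, which makes it at least 118-fold lower against a floor of 3 counts over the group. Of the transcriptional repressors of CDH1, 3 were called higher and 4 lower of 8 tested (87.5%). Of all genes 43.5% were called, 22.5% higher and 21.1% lower. ZEB2 rose from 0.383 to 35.9 FPKM and ZEB1 from 0.36 to 14.5 FPKM, with ZEB1 between 7.58 and 20.3 FPKM among the D70-RO libraries. TWIST1 was called higher as well. SNAI1 fell from 8.35 to 0.577 FPKM and TWIST2 fell by 4.49 on the log2 scale. In P1 iMGCs against D150-ROs, 3 repressors were called higher and 1 lower of 7 (57.1%, against 44.1% of all genes). SNAI2 went from 0.463 to 44.3 FPKM and SNAI1 rose by 4.11 ± 0.34 (SE) on the log2 scale, while TCF4 fell by 2.12.

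The group means of the summed FPKM of the 18 classical cadherins lay between 238 and 308 while the members that made it up changed. In hiPSCs CDH1 gave 50.4% of it, CDH3 36.1% and CDH2 3.82%. CDH2 gave 37.1% in D70-ROs, 49.97% in D150-ROs, 59.2% in P1 iMGCs and 58.7% in P5 iMGCs. Next to it stood CDH11 with 31.2% in D70-ROs, 21.7% in D150-ROs, 29.9% in P1 iMGCs and 28.6% in P5 iMGCs. The ROs were distinguished by CDH20 with 12.5% at day 70 and 11.3% at day 150. Type II genes together summed to 18.9 to 20.4 FPKM in hiPSC libraries and 168 to 180 FPKM in D70-RO libraries.

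**Figure D2:**
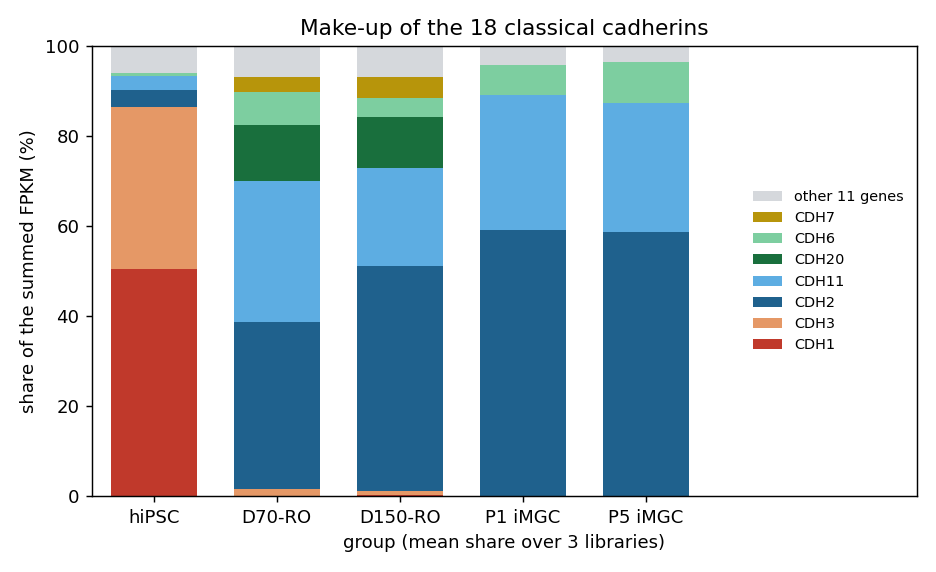
Share (%) of the summed FPKM of the 18 type I and type II classical cadherins taken by each gene, as the mean of 3 libraries per group, stacked to 100%. CDH1 and CDH3 fill most of the hiPSC bar, CDH2 and CDH11 the largest parts of the later bars, and CDH20 and CDH7 appear in the RO bars only.

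Type II cadherins, which sort neurons and mesenchymal cells by combination, divided into genes at or near 0 in the iMGCs and genes present in ROs and iMGCs alike. From hiPSCs to D70-ROs 5 of 6 tested were called higher and none lower, against 22.5% and 21.1% of all genes. CDH7, CDH10 and CDH20 passed the filter through D70-ROs alone, so a call for them could only be higher. CDH11 (chr16:64943753-65126112, − strand), known from osteoblasts and mesenchyme and also present in retinal progenitors, was at 7.32, 7.37 and 6.22 FPKM in hiPSCs, 88.6, 93.2 and 92.7 FPKM in D70-ROs and 54.5, 56.0 and 46.7 FPKM in D150-ROs. In P1 iMGCs it was at 92.4, 91.5 and 92.7 FPKM and in P5 iMGCs at 87.4, 85.3 and 84.7 FPKM. The iMGC and D70-RO libraries thus lay above every D150-RO library. CDH11 was 3.05-fold higher in P1 iMGCs than in D150-ROs (log2 fold change 1.61 ± 0.05 (SE), or 0.81 with limma on FPKM, short of 2-fold).

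CDH20, expressed in the developing nervous system and neural crest, was at 0.29, 0.28 and 0.35 FPKM in hiPSCs, 35.0, 40.5 and 34.5 FPKM in D70-ROs and 29.6, 27.1 and 25.1 FPKM in D150-ROs. The RO libraries did not overlap those of hiPSCs, and CDH20 was 116-fold higher in D70-ROs (log2 fold change 6.86 ± 0.18 (SE), edgeR quasi-likelihood adjusted p = 3.80e-10). In P1 iMGCs 3 counts remained, a log2 ratio between −12.28 and −8.45 to D150-ROs (95% counting interval). CDH7, a cadherin of the neural tube and retina, followed with 0.24, 0.15 and 0.23 FPKM in hiPSCs, 10.2, 7.52 and 10.8 FPKM in D70-ROs and 12.4, 10.2 and 10.3 FPKM in D150-ROs. It had 1 count in P1 iMGCs, a log2 ratio between −16.09 and −8.31. CDH8 and CDH22, both cadherins of the brain, were low throughout, and CDH22 had no count in the iMGCs.

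CDH6 and CDH10 went down between the RO ages and up again in culture. CDH6, a cadherin of kidney and developing retina, was at 1.06 to 1.82 FPKM in hiPSCs and at 21.3, 26.1 and 17.8 FPKM in D70-ROs. In D150-ROs it was at 8.76, 10.4 and 11.1 FPKM, in P1 iMGCs at 21.0, 20.5 and 19.7 FPKM and in P5 iMGCs at 27.8, 26.1 and 27.3 FPKM. The D150-RO libraries were lower than all D70-RO and iMGC libraries, with a log2 fold change of −1.30 ± 0.17 (SE) from D70-ROs and of 1.72 ± 0.08 (SE) to P1 iMGCs. The first missed the threshold when edgeR tested for more than 2-fold (adjusted p = 0.0639), and the second was 0.95 with limma on log2(FPKM + 1). CDH10, a neuronal cadherin, was at 3.54, 3.08 and 3.59 FPKM in D70-ROs, 2.35, 1.94 and 1.20 FPKM in D150-ROs and 4.58, 4.03 and 3.79 FPKM in P1 iMGCs. Its fall between the RO ages was −1.12 ± 0.23 (SE, edgeR quasi-likelihood adjusted p = 0.00217) and rested on D150-RO replicate 3, without which the log2 fold change was −0.88 and no longer 2-fold. Its rise to P1 iMGCs was 1.82 ± 0.18 (SE), or 0.88 with limma on log2(FPKM + 1). CDH24 was the type II gene with the highest level in hiPSCs, at 8.41, 9.4 and 8.72 FPKM, and fell by 1.34 on the log2 scale to D150-ROs. CDH19, a cadherin of Schwann cell precursors, was at 0 FPKM in every library but 1, and CDH5, the endothelial VE-cadherin, was at 0.48 to 0.87 FPKM in hiPSCs and at 0.07 FPKM or less elsewhere.

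T-cadherin (CDH13, ENSG00000140945, chr16:82626803-83800640, + strand) was the member with the largest called rise in the iMGCs. It lacks the cytoplasmic tail that binds catenins, is held in the membrane by a lipid anchor and binds adiponectin. It was at 0.42, 0.56 and 0.39 FPKM in D150-ROs, 29.6, 31.3 and 29.2 FPKM in P1 iMGCs and 37.2, 34.5 and 37.4 FPKM in P5 iMGCs, and no hiPSC or RO library exceeded 0.61 FPKM. CDH13 was thus 91.1-fold higher in P1 iMGCs than in D150-ROs (log2 fold change 6.51 ± 0.09 (SE), edgeR quasi-likelihood adjusted p = 2.78e-18). CDH23, a tip-link cadherin of hair cells that is also affected in Usher syndrome, was the reverse case, at 19.0, 16.6 and 17.9 FPKM in D150-ROs and with 2 counts in P1 iMGCs (log2 ratio between −14.05 and −9.15, 95% counting interval). Its tip-link partner PCDH15, another Usher gene, was at 0.33 to 0.47 FPKM in D70-ROs, 2.74, 2.44 and 2.95 FPKM in D150-ROs and at most 0.05 FPKM in the iMGCs. PCDH15 was 6.47-fold higher in D150-ROs than at day 70, and the groups did not overlap.

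Markers of other cell types moved with these results. The fibroblast or mesenchyme list (COL1A1, COL1A2, COL3A1, DCN, LUM, PDGFRB) had 3 of 6 genes above 1 FPKM in D150-ROs and 6 of 6 in P1 iMGCs, and its summed level went from 20.6 to 24.0 FPKM in D150-ROs to 2246 to 2352 FPKM in P1 iMGCs and 2533 to 2780 FPKM in P5 iMGCs. For smooth muscle (ACTA2, MYH11, TAGLN, CNN1) it was 1 of 4 genes and 7.98 to 9.97 FPKM in D150-ROs, and 3 of 4 genes and 2175 to 2366 FPKM in P1 iMGCs. The photoreceptor gene CRX was at 35.3 to 38.8 FPKM in D70-ROs and 136 to 149.7 FPKM in D150-ROs and had no count at either passage, and the progenitor gene RAX was at 72.6 to 82.2 FPKM in D150-ROs and had none at either passage. Schwann and neural crest markers summed to 45.4 to 51.7 FPKM in D150-ROs, with 2 of 4 above 1 FPKM, and to 0.39 to 0.72 FPKM in P1 iMGCs, with none above it. Endothelial markers summed to 0.13 to 0.29 FPKM in P1 iMGCs, astrocyte markers to 0.01 to 0.18 FPKM, microglia markers to 0.36 to 0.94 FPKM and skeletal muscle markers to 3.04 to 3.55 FPKM. The part of these cell types in the levels of CDH2, CDH11, CDH13, CDH20 and CDH23, or of the delta-2, alpha and beta genes below, was not tested.

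**Figure D3:**
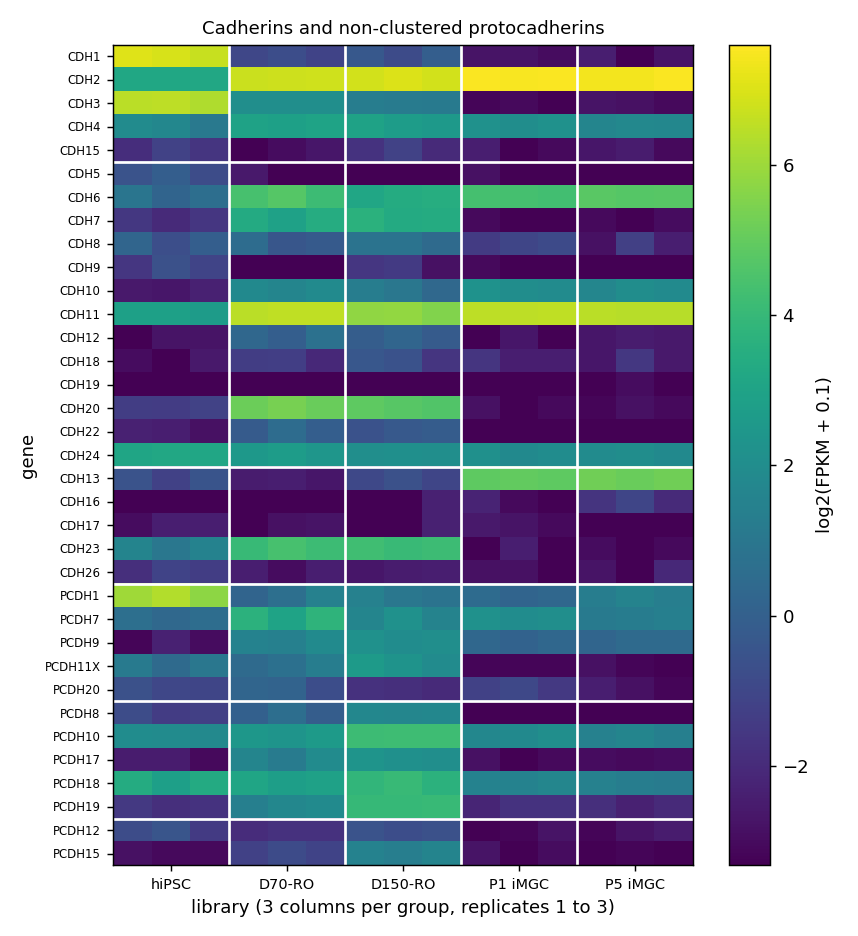
Heat map of log2(FPKM + 0.1) for the 35 cadherins and protocadherins outside the clusters, 1 row per gene ordered by class and 1 column per library. CDH1, CDH3 and PCDH1 are brightest in hiPSCs, CDH20, CDH7 and CDH23 in ROs, and CDH13 in iMGCs.

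Delta protocadherins are single genes that act in cell sorting and neuronal wiring. PCDH1 (chr5:141853111-141879246, − strand), a delta-1 gene of epithelia and airway, was the member with the highest level in hiPSCs after CDH1 and CDH3, at 66.8, 80.3 and 53.7 FPKM. It was at 1.05, 1.47 and 2.67 FPKM in D70-ROs and 2.67, 1.89 and 1.67 FPKM in D150-ROs, 50.2-fold lower in D70-ROs than in the hiPSC libraries (log2 fold change −5.65 ± 0.22 (SE), edgeR quasi-likelihood adjusted p = 3.13e-09). PCDH9 and PCDH7 were called higher in D70-ROs, PCDH11X was not (log2 fold change 0.08), and PCDH20 had a mean under 1 FPKM in every group. PCDH9, a gene of cortical and retinal neurons, was at most 0.10 FPKM in hiPSCs, 2.61 to 3.64 FPKM in D70-ROs and 3.91 to 4.52 FPKM in D150-ROs, 57.1-fold higher in D70-ROs than in hiPSCs. PCDH7 peaked at day 70 with 12.7, 7.90 and 13.5 FPKM and fell 4.04-fold to D150-ROs, where it was at 3.02, 4.54 and 2.88 FPKM. PCDH11X was at 6.10, 4.84 and 3.73 FPKM in D150-ROs and had 4 counts in P1 iMGCs. Its reads could come in part from a near-identical copy of the gene that is not a member, and its values are uncertain for that reason.

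The 5 delta-2 protocadherins, PCDH8, PCDH10, PCDH17, PCDH18 and PCDH19 all had their highest mean in D150-ROs. Of the 5, 4 were called higher in D150-ROs than in hiPSCs, where 29.8% of all genes were. In P1 iMGCs 5 of 5 were called lower than in D150-ROs, against 24.1% of all genes. The median log2 fold changes were 2.90 and −5.90. PCDH8, PCDH17 and PCDH19 passed the filter through D150-ROs alone in both comparisons, so their calls had to come out this way. PCDH19, an X-linked epilepsy gene that acts with N-cadherin, was at 0.25, 0.18 and 0.20 FPKM in hiPSCs, 2.54, 3.24 and 3.67 FPKM in D70-ROs, 15.6, 16.0 and 16.5 FPKM in D150-ROs and 0.12, 0.20 and 0.20 FPKM in P1 iMGCs. The D150-RO libraries were above all others by a wide margin, 4.45-fold over D70-ROs, and the log2 fold change to P1 iMGCs was −5.90 ± 0.11 (SE). PCDH17, which acts at synapses of basal ganglia circuits, was at 2.23 to 3.72 FPKM in D70-ROs and 4.17 to 4.95 FPKM in D150-ROs, against 0.08 FPKM or less in hiPSCs and 0.04 or less in the iMGCs. PCDH8, whose protein takes part in the removal of N-cadherin from synapses, had 641 counts and 3.26, 3.17 and 3.25 FPKM in D150-ROs and no count at either passage, so that it was at least 142-fold lower in P1 iMGCs against a floor of 3 counts over the group. PCDH10 and PCDH18 were lowered less. PCDH10 was at 17.8, 18.4 and 18.3 FPKM in D150-ROs and 3.23, 3.51 and 4.10 FPKM in P1 iMGCs, with PCDH18 at 14.5, 16.1 and 12.8 FPKM and 2.78, 2.75 and 3.13 FPKM.

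**Figure D4:**
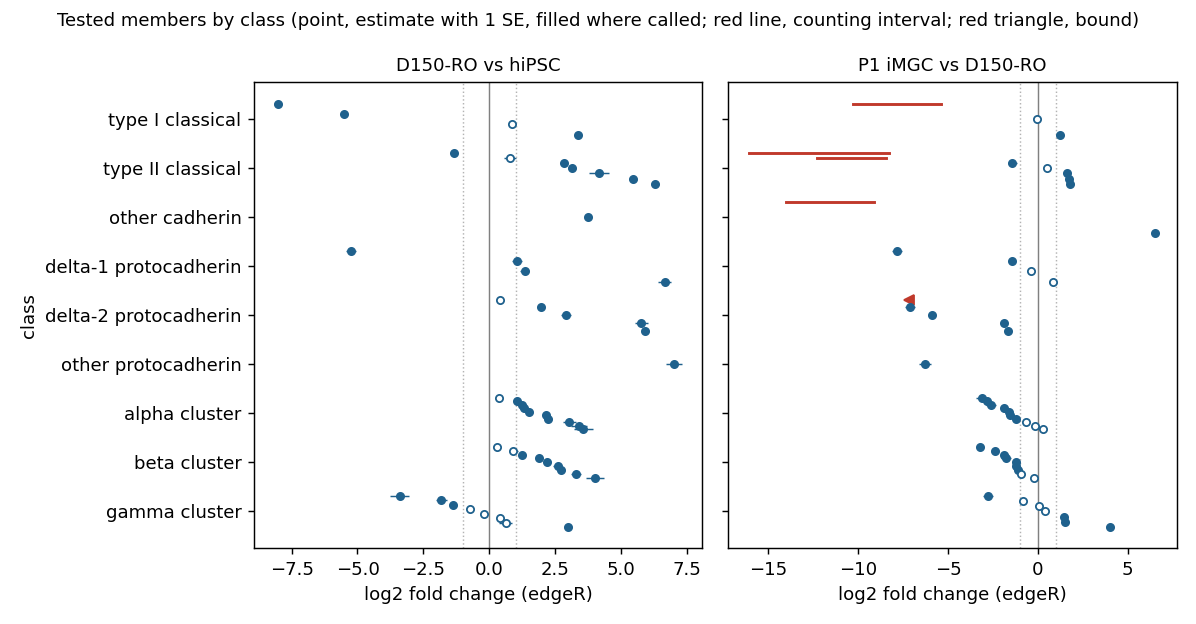
Log2 fold change of each tested member, by class, for D150-ROs against hiPSCs and for P1 iMGCs against D150-ROs. Filled points were called, bars are 1 SE, red lines are 95% counting intervals of members with 1 to 3 counts in a group, the red triangle is the bound for PCDH8, and dotted lines mark a 2-fold change. Delta-2, alpha and beta genes lie mostly above 0 in the first panel and mostly below 0 in the second.

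Clustered protocadherins were compared first as cluster sums, and the tests used summed counts, which do not depend on how reads were shared out between the genes of a cluster. The FPKM sums do depend on it, since each gene is scaled by its own length. The exons of all 37 alpha and gamma genes overlap those of other members of their cluster. Values of single alpha and gamma genes thus rest on an estimate. No beta gene shares exon bases with another. Beta counts were in part not whole as well, as with 598.26 for PCDHB2 in hiPSC replicate 1. Values of single beta genes thus also rest in part on an estimate. The alpha sum was 21.3, 20.6 and 19.7 FPKM in hiPSCs, 27.9, 27.5 and 32.4 FPKM in D70-ROs, 67.6, 65.9 and 71.7 FPKM in D150-ROs, 20.9, 19.4 and 20.7 FPKM in P1 iMGCs and 20.5, 21.6 and 21.1 FPKM in P5 iMGCs. Every D150-RO library was above all others, and the iMGC libraries lay beside those of hiPSCs, between which no test was made. The alpha sum was 2.07-fold higher in D150-ROs than at day 70 (log2 fold change 1.05 ± 0.08 (SE), edgeR quasi-likelihood adjusted p = 5.97e-06) and 2.3-fold lower in P1 iMGCs than in D150-ROs (−1.20 ± 0.05 (SE), adjusted p = 1.27e-12). The first of these calls stood close to the limit, since upper-quartile scaling gave 0.95 and testing for more than 2-fold an edgeR adjusted p of 0.368.

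The beta sum was 19.2, 31.6 and 18.9 FPKM in hiPSCs, 39.4, 34.4 and 40.0 FPKM in D70-ROs, 84.4, 79.5 and 78.3 FPKM in D150-ROs, 22.1, 24.4 and 22.0 FPKM in P1 iMGCs and 18.6, 19.4 and 19.9 FPKM in P5 iMGCs. The high hiPSC library, replicate 2, owed its sum to FPKM of PCDHB2 and PCDHB3 that its counts do not show, as given with those genes. All D150-RO libraries were above all others, with a 3.58-fold rise over hiPSCs and a 2.25-fold fall to P1 iMGCs (log2 fold change −1.17 ± 0.04 (SE), edgeR quasi-likelihood adjusted p = 5.87e-13). The step from D70-ROs was 0.94 ± 0.08 (SE), just under 2-fold. Gamma genes did not follow. Their sum was 39.9 to 54.5 FPKM in hiPSCs, 50.8 to 66.1 FPKM in D70-ROs, 75.9 to 83.0 FPKM in D150-ROs, 61.7 to 64.2 FPKM in P1 iMGCs and 73.4 to 75.6 FPKM in P5 iMGCs. It reached a 2-fold change in none of the 5 comparisons, and its direction from D150-ROs to P1 iMGCs depended on the scale, at 0.34 ± 0.05 (SE) on the log2 scale with edgeR and −0.33 with limma on FPKM.

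**Figure D5:**
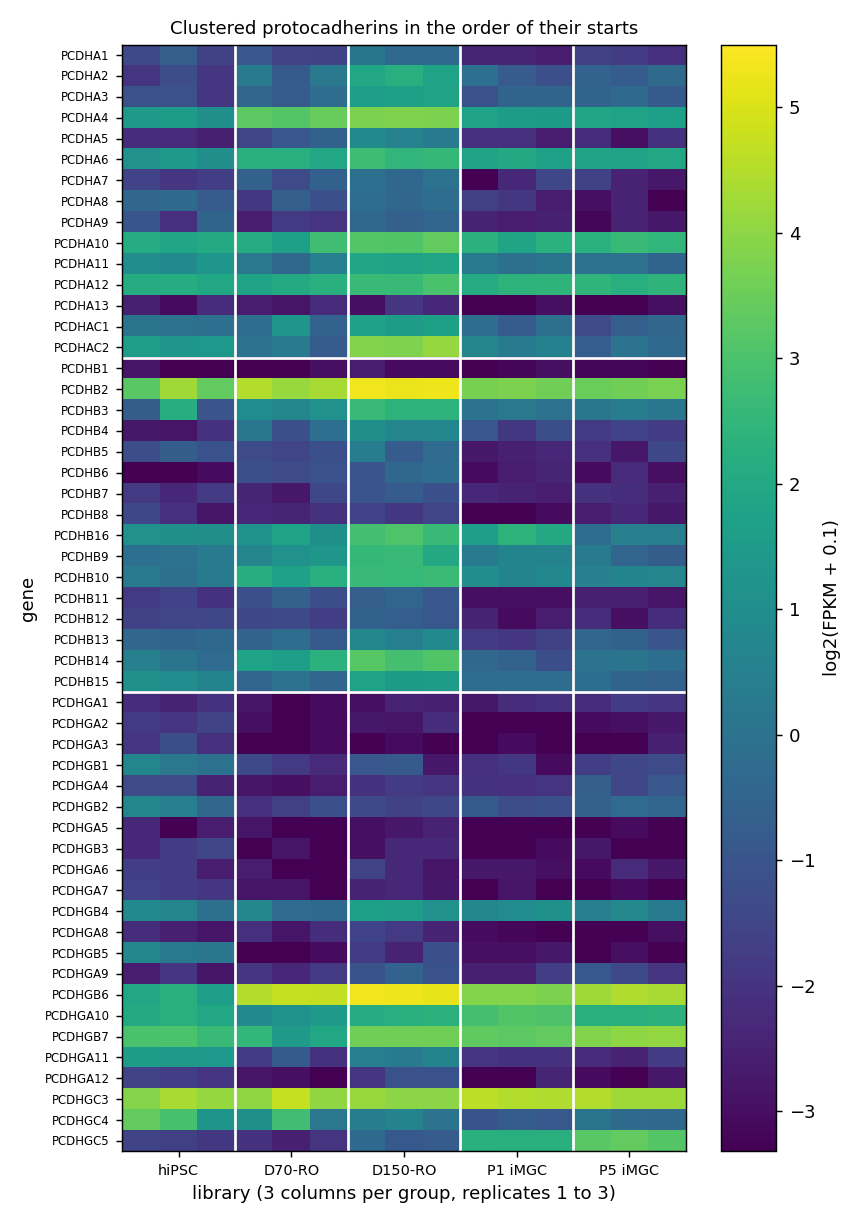
Heat map of log2(FPKM + 0.1) for the 53 clustered protocadherins, 1 row per gene in the order of their starts along chromosome 5 and 1 column per library. Alpha and beta genes are brightest in the 3 D150-RO columns, and PCDHGC3 is bright in all columns.

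Within the alpha cluster 6 of 10 tested genes were called higher in D150-ROs than at day 70 and none lower, against 16.6% and 16.7% of all genes. In P1 iMGCs 7 of 10 were called lower than in D150-ROs and none higher, against 24.1% and 20% of all genes. PCDHA2, PCDHA3, PCDHA5 and PCDHAC1 passed the filter through D150-ROs alone here, so a call for them could only be lower. PCDHA3 and PCDHA5 also passed it through D150-ROs alone against D70-ROs, where a call could only be higher. PCDHAC2 (chr5:140966235-141012344), a C-type gene that serotonergic axons use for tiling, was at 2.89, 2.40 and 2.53 FPKM in hiPSCs, 0.91, 1.11 and 0.49 FPKM in D70-ROs and 14.0, 13.6 and 17.1 FPKM in D150-ROs. It went below every hiPSC library and then above all of them, and its rise of 15.6-fold between the RO ages was the largest of the members tested in that comparison (log2 fold change 3.96 ± 0.25 (SE), edgeR quasi-likelihood adjusted p = 1.83e-06). In P1 iMGCs it was at 1.51, 1.10 and 1.38 FPKM. PCDHA4, the alpha gene with the highest level in D70-ROs, was at 2.01 to 2.78 FPKM in hiPSCs, 9.53, 8.79 and 10.9 FPKM in D70-ROs and 13.3, 13.9 and 13.4 FPKM in D150-ROs, and at 2.67 to 3.36 FPKM in P1 iMGCs. PCDHA12, which led the cluster in hiPSCs with 20.2% of its FPKM, moved less, with 3.80 to 4.36 FPKM in hiPSCs, 6.24 to 7.73 FPKM in D150-ROs and 4.18 to 5.25 FPKM in P1 iMGCs, and was called in no comparison. PCDHA10, which led it in P5 iMGCs with 26.2%, was at 4.87 to 6.23 FPKM there. PCDHA4, PCDHA10 and PCDHA12 carry the alpha word in the sequences shown above, and the window searched for PCDHAC2 does not. A relation of the word to these levels was not tested.

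In the beta cluster PCDHB2 (chr5:141094578-141098703) alone gave 48.2% to 62.5% of the FPKM in every group. It was at 22.3, 17.7 and 20.4 FPKM in D70-ROs, 39.6, 38.1 and 38.9 FPKM in D150-ROs, 12.8, 13.3 and 12.0 FPKM in P1 iMGCs and 11.2, 11.9 and 13.0 FPKM in P5 iMGCs. In hiPSCs it was at 9.29, 18.8 and 10.3 FPKM, and the high library, replicate 2, had an expected count much like the others, 639 against 598 and 602. PCDHB3 showed the same gap between its values in that library, at 0.50, 4.39 and 0.40 FPKM with expected counts of 33.6, 24.0 and 27.6. The tests rest on the counts. From hiPSCs to D150-ROs 7 of 9 tested beta genes were called higher (29.8% of all genes), and from D150-ROs to P1 iMGCs 7 of 9 lower (24.1% of all genes). PCDHB14 had the largest fall of these, from 9.16, 7.27 and 8.58 FPKM to 0.69, 0.59 and 0.33 FPKM (log2 fold change −3.23 ± 0.16 (SE)). PCDHB4, PCDHB13, PCDHB14 and PCDHB15 passed the filter through D150-ROs alone against P1 iMGCs, so a call for them could only be lower. PCDHB4 and PCDHB13 also passed it through D150-ROs alone against hiPSCs, where a call could only be higher. PCDHB16 was the only beta gene tested that was called between passages. It was at 2.95, 5.10 and 3.94 FPKM in P1 and 0.80, 1.33 and 1.28 FPKM in P5 iMGCs, 2.98-fold lower without overlap (log2 fold change −1.57 ± 0.14 (SE), edgeR quasi-likelihood adjusted p = 3.13e-09). PCDHB16 overlaps other genes on both strands, and the strand of the libraries is not stated, so reads of an overlapping gene cannot be told apart.

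Gamma genes moved in opposite directions while their sum changed by less than 2-fold. PCDHGB6 (chr5:141408021-141512979) was at 3.77, 4.67 and 3.01 FPKM in hiPSCs and 22.4, 26.5 and 25.8 FPKM in D70-ROs, a rise of 2.57 ± 0.18 (SE) on the log2 scale with no overlap. It then led the cluster with 44.8% of the FPKM in D70-ROs and 48.4% in D150-ROs, where it was at 40.5, 38.3 and 36.4 FPKM. In P1 iMGCs it was at 14.5, 14.5 and 13.4 FPKM, below every RO library, and the fold change on the scaling of edgeR was −0.80. PCDHGB5, another gene of the cluster, went the other way, at 1.65, 1.08 and 1.01 FPKM in hiPSCs and with 2 counts in D70-ROs (log2 ratio between −10.15 and −5.23, 95% counting interval). PCDHGA11 was lower in D70-ROs than in hiPSCs by 12.8-fold, at 2.48 to 2.83 FPKM against 0.14 to 0.46 FPKM. It was 4.90-fold higher again in D150-ROs, at 1.17 to 1.46 FPKM, still below hiPSCs.

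The 3 C-type gamma genes, which are not drawn at random from neuron to neuron as the others are, each had a profile of its own. PCDHGC3 was expressed throughout, at 14.9 to 20.2 FPKM in hiPSCs, 16.1 to 26.0 FPKM in D70-ROs, 15.5 to 17.7 FPKM in D150-ROs and 21.5 to 24.4 FPKM in P1 iMGCs. It led the cluster in hiPSCs with 36.2% and in P1 iMGCs with 36.0%. PCDHGC4, needed for the survival of neurons, had its highest mean in hiPSCs, at 10.4, 7.62 and 2.25 FPKM. Its expected counts there, 321, 261 and 183, were less far apart. The D70-RO libraries, at 1.98, 6.82 and 1.04 FPKM, overlapped those of hiPSCs. PCDHGC4 fell by 1.83 ± 0.22 (SE) on the log2 scale from hiPSCs to D150-ROs, at 0.92 to 1.43 FPKM. PCDHGC5 (chr5:141489121-141512979), whose protein binds GABA-A receptors at synapses, was at 0.70 FPKM or less in every hiPSC and RO library, at 4.72, 4.63 and 4.69 FPKM in P1 iMGCs and at 9.43, 10.2 and 8.76 FPKM in P5 iMGCs. It was 16.1-fold higher in P1 iMGCs than in D150-ROs and a further 2.13-fold higher in P5 iMGCs (log2 fold changes 4.01 ± 0.20 and 1.09 ± 0.07 (SE), edgeR quasi-likelihood adjusted p = 1.72e-11 and 9.47e-12). The 3 groups did not overlap in either step. PCDHGA10 was called higher in P1 iMGCs than in D150-ROs on the scaling of edgeR, by 1.44 ± 0.08 (SE), but its FPKM means of 4.61 and 8.02 are less than 2-fold apart. In P5 iMGCs it was at 4.63 to 5.04 FPKM and was not called against P1 (log2 fold change −0.68).

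Passage 5 differed from passage 1 in 3 members at 2-fold, the 2 described above and PCDH1. PCDH1 was at 1.32, 1.05 and 1.15 FPKM in P1 and 2.37, 2.88 and 2.46 FPKM in P5 iMGCs, 2.56-fold higher without overlap (edgeR quasi-likelihood adjusted p = 2.21e-08). On log2(FPKM + 1) with limma, PCDH1 and PCDHGC5 rose by 0.72 and 0.88 between passages, short of 2-fold. CDH13 and CDH6 were higher by 0.38 and 0.47 on the log2 scale, short of 2-fold. The median of the 28 members tested was 0.01.

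Intracellular partners were measured to set beside these changes. Catenins link cadherins to actin, and the list of 13 genes used here also holds plakophilins and vinculin. Of these 13, 11 reached 1 FPKM in every hiPSC library and 10 in every library of D70-ROs and of D150-ROs. In P1 iMGCs 8 did and in P5 iMGCs 6, and PKP1 had no count at either passage. Of 11 tested from hiPSCs to D70-ROs, 2 were called higher and 3 lower (45.5%, near the 43.5% of all genes). CTNNA2, the neural alpha-catenin, went from 2.72 to 46.4 FPKM and CTNND2, the neural delta-catenin, from 3.72 to 34.0 FPKM, while PKP3, a desmosomal plakophilin, fell by 6.95 and VCL, vinculin, by 3.03 on the log2 scale. CTNNB1 had means of 163, 193, 125, 131 and 139 FPKM from hiPSCs to P5 iMGCs and was called in no comparison. In P1 iMGCs against D150-ROs 2 genes of this list were called higher and 4 lower of 10 tested (60%, against 44.1% of all genes). VCL went from 17.1 to 156 FPKM and CTNND2 from 22.5 to 0.35 FPKM.

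Genes that regulate protocadherin promoters or cohesin were measured in every group. From hiPSCs to D70-ROs 2 were called higher and 1 lower of 13 (23.1%, against 43.5% of all genes). DNMT3B, a DNA methyltransferase that acts on these promoters, fell from 412 to 9.22 FPKM. From D70-ROs to D150-ROs 3 were called higher and none lower (23.1%, against 33.3% of all genes), with the cohesin subunit SMC3 going from 25.7 to 111 FPKM and the cohesin loader NIPBL from 7.94 to 34.7 FPKM. In P1 iMGCs against D150-ROs 4 of 13 were called lower and none higher (30.8%, against 44.1% of all genes), and SMC3 was at 20.5 FPKM. CTCF, which binds these promoters with cohesin, had means of 36.0, 32.2, 39.5, 14.3 and 13.3 FPKM in the 5 groups. On the scaling of edgeR its log2 fold change from D150-ROs to P1 iMGCs was −0.81, short of 2-fold, while the FPKM means lie further apart. Between passages DNMT3B was the gene of this list that was called, lower by 1.41 on the log2 scale.

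Other genes of the cadherin superfamily and its partners gave the following counts in P1 iMGCs against D150-ROs, where 20% of all genes were called higher and 24.1% lower. The lists are too short for a share to be read closely. Of the desmosomal cadherins 2 of 3 tested were called higher, with DSC3 going from 1.96 to 40.9 FPKM and DSG2 from 6.06 to 46.8 FPKM. Of the atypical and seven-pass cadherins 3 were called higher and 3 lower of 8, with FAT1, a giant cadherin of growth control, going from 38.7 to 127 FPKM. CDHR1, the photoreceptor cadherin, had means of 4.27, 14.8, 246, 2.27 and 4.48 FPKM in the 5 groups. Of the nectins and afadin 1 was called higher and 2 lower of 5. Of the proteases that shed cadherins 6 of 8 were called higher and none lower, and MMP14, a membrane-bound metalloprotease, went from 11.4 to 262 FPKM.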

How the data were processed

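The data were poly(A) RNA-seq libraries of hiPSCs, NR layers and iMGCs, grouped by the sample titles. The authors mapped reads with HISAT2, used StringTie for transcript assembly and RSEM for the gene values, and their notes also name DESeq2. Versions, genome build, annotation and library strand are not given in the sources used here. The deposited expected counts are RSEM's estimates of the reads of a gene and are not normalized. The deposited FPKM values were scaled by the authors for transcript length and mapped reads. Of the expected counts, 8.21% to 10.1% per library were not whole and were rounded before the tests. Gene positions came from GENCODE 29, which held all 19684 gene identifiers. The table of D150-ROs and iMGCs has 6 columns of iMGCs of no stated passage, which were not used here.

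The tests used R 4.3.3 with edgeR 4.0.16 (TMM factors, quasi-likelihood test), limma 3.58.1 and DESeq2 1.42.0, and each comparison used the 6 libraries of its 2 groups without covariates. The scripts were tested on simulated data with known changes. Counts of the alpha, beta and gamma genes were summed per cluster as a further feature of the same fit. Of the members, 29 have exons over a gene on the opposite strand and 9 over another gene on the same strand. Intervals and floors (95%, 3 counts) cover counting error only. The series description names 2 sequencing companies and a correction between batches, and a batch cannot be told apart from the groups.

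Some marker results are not reported here. The members and gene lists were chosen with earlier results of these data known. Genes were named by rule: CDH1 and CDH2, in each comparison up to 5 called members each with the largest rise and fall and at least 1 FPKM, the 3 members with the highest mean per group, the leading member of each cluster, and up to 4 genes of each partner list with the largest called change. Members outside the rule are named to show the range of their class. Alternatives were no filter, edgeR's own filter, upper-quartile scaling, DESeq2, limma on log2(FPKM + 1) and log2(FPKM + 0.1), a block for the replicate number, all 15 libraries in 1 fit, testing for more than 2-fold, P5 libraries with or in place of P1, other pseudocounts of the CDH2 to CDH1 ratio, and each library left out in turn.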

Additional observations from a re-analysis of the deposited data

How the results depend on the processing

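The direction and call of the E- to N-cadherin switch from hiPSCs to D70-ROs held under every alternative run. The number of members called depended mainly on the filter, which by construction changes the genes tested. Without a filter it was 55 for D70-ROs against hiPSCs, 34 for D150-ROs against D70-ROs, 62 for P1 iMGCs against D150-ROs and 10 for P5 against P1 iMGCs, and with edgeR's own filter it was 47 and 9 in the first and last of these. The test against a 2-fold change called 11 members between the RO ages and 1 between passages, where limma on log2(FPKM + 1) called 1 as well. The alpha sum in D150-ROs against D70-ROs lost its call at 0.95 with upper-quartile scaling and at 1.05 in the test against a 2-fold change, and the beta sum gained one at 1.07 and 1.09 with limma. The gamma sum in P1 iMGCs against D150-ROs reversed to −0.33 with limma at both pseudocounts. The cause of these changes was not tested. The log2 ratio of CDH2 to CDH1 shrinks as the pseudocount grows, to 7.73 in D70-ROs, 10.32 in P1 and 10.28 in P5 iMGCs with 0.1 FPKM, and to 6.28 in D70-ROs, 6.18 in D150-ROs, 7.46 in P1 and 7.41 in P5 iMGCs with 1 FPKM. CDH2 in D150-ROs against D70-ROs reversed to 0.14 with limma at both pseudocounts, and CDH2 in P5 against P1 iMGCs, near 0 throughout, to −0.00029 without a filter, −0.0024 with upper-quartile scaling, −0.0030 with DESeq2, −0.045 and −0.046 with limma and −0.012 with all 15 libraries in 1 fit. Leaving out 1 library gave CDH2 between passages −0.0080 to 0.014 (with −0.0058 and −0.0040 in between), and numbers of members called of 28 to 29, 20 to 24, 38 to 39, 36 to 37 and 3 to 4 in the 5 comparisons in the order of the report. Replicate numbers were not taken as pairs, because deviations of equally numbered libraries correlated between −0.074 and 0.337 and not in every pair over 0.1. With the replicate block 29, 23, 39, 36 and 3 members were called. With P5 in place of P1 libraries against D150-ROs, 36 members were called, 34 of them also with P1. Members below the filter were not tested in the values of the report, and the shallow D70-RO replicate 2 limits low members there.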
